A study of Homo sapiens with 12 samples.

Results

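Aminoacyl-tRNA synthetases are the enzymes that join each amino acid to its transfer RNA, and 36 of their genes were followed here among the 18650 coding genes measured. The genes were taken by name: 20 encode the cytosolic enzymes, and 16, whose names end in 2, encode the mitochondrial enzymes. All 36 were present in the files. They were chosen with earlier results of these data known. The libraries came from 22Rv1, a human prostate cancer cell line, gene-edited to carry the substitution C1111S in SF3B1, the splicing factor subunit that recognises the branch site. Every group carried this edit, and unedited cells were not analysed here. The labels do not say whether the edited line is a single clone.

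Cells received WX-02-23 at 20 µM, WX-02-43 at 20 µM or PladB at 10 nM, each for 3 h, or DMSO at 0.1% v/v, with 3 libraries in each of the 4 groups. PladB is pladienolide B, a natural product that binds the SF3b complex and blocks splicing. WX-02-23 and WX-02-43 are known here by code name only, and the labels call them stereoprobes. Cells were then given 100 µM 4-thiouridine for 1 h, which newly made RNA takes up in place of uridine. Alkylated with iodoacetamide, such a base is copied as C in place of T during library making, and a read that carries the change is called a T>C read. The design asks how these compounds change the transcriptome of the edited cells. Here the total RNA (all reads), the newly made RNA (T>C reads) and the share of a gene's reads that are T>C reads (the labelled share) are described for the synthetase genes.

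In the cytosol, each synthetase loads 1 kind of amino acid, except that EPRS joins the enzymes for glutamate and proline in a single chain, and FARSA and FARSB are the subunits of the phenylalanine enzyme. A group of 8 of the cytosolic genes (EPRS, IARS, LARS, MARS, QARS, RARS, KARS and DARS) encode the enzymes of the multisynthetase complex, a particle held together by scaffold proteins. Mitochondria load their own transfer RNAs with a separate set of nuclear-encoded enzymes, while GARS and KARS each give enzyme to both compartments. Several cytosolic synthetase genes are known targets of ATF4, the transcription factor of the amino acid response, which binds a composite sequence called the C/EBP-ATF response element.

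Coding reads ran from 12331501 to 21414162 per library, and coding T>C reads from 826620 to 2094217. T>C reads made up 9.64 ± 0.218% of coding reads with WX-02-23, 9.10 ± 0.277% with WX-02-43, 5.44 ± 0.191% with PladB and 9.45 ± 0.43% with DMSO (SD, n = 3 each). The luminal prostate markers FOXA1 (5685 to 15527 reads per library) and HOXB13 (2662 to 5419) were high, and KLK3 had 76 to 327 reads. The basal markers KRT5 and TP63 and the T cell marker CD3E were at 0 in all 12 libraries. The full list of basal markers summed to 0 to 3 reads per library, and that of leukocyte markers, which includes CD3E, to 19 to 99. The fibroblast markers COL1A1, DCN and LUM together had 354 to 397 reads per PladB library, 238 to 340 with WX-02-23 and 209 to 281 with WX-02-43, against 154 to 196 with DMSO. These counts moved with the PladB comparison below, and their part in it was not tested. Whether replicates came from separate cultures is not labelled, so p-values here reflect only the spread among these libraries, which may be technical.

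The promoters of 16 cytosolic and 14 mitochondrial synthetase genes were available as windows of 300 bases, from 250 before to 50 after a start of the gene (RefSeq, GRCh38.p14), and some genes had more than 1 window. They were searched on both strands for TGATGNAAN, a written form of the C/EBP-ATF response element in which N is any base. A match in at least 1 window was found for 7 of the 16 cytosolic genes (43.8%) and 1 of the 14 mitochondrial genes (7.14%), against 570 of 15843 coding genes with a window (3.60%). The narrower form TGATGCAAN was found for 6 of the cytosolic genes (37.5%) and for 0.903% of the coding genes with a window. Of the 8 genes with a match, 6 are shown, because the match is what they share beyond their enzyme names. The 9 bases of the match are in capitals, with 14 bases on each side, on the strand that holds the match.
AARS, chr16:70289672-70289708, plus strand, opposite to the gene: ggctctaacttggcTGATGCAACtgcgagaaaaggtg
CARS, chr11:3057404-3057440, plus strand, opposite to the gene: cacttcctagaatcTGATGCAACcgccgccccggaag
GARS, chr7:30594830-30594866, minus strand, opposite to the gene: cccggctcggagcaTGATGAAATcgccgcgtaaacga
NARS, chr18:57621800-57621836, minus strand, the strand of the gene: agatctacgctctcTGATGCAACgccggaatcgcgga
TARS, chr5:33440952-33440988, minus strand, opposite to the gene: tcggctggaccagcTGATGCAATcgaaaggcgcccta
YARS2, chr12:32756072-32756108, minus strand, the strand of the gene: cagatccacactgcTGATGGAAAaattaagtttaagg

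Among those shown, the same 9 letters recurred in AARS, CARS and NARS, and TARS shared with them the narrower form. The CARS and TARS matches lay at a start of the gene. Of those shown, the AARS and YARS2 matches lay furthest upstream. No window was in the table for DARS, LARS, VARS, YARS, AARS2 or VARS2. A match is a description of letters and says nothing of binding in these cells.

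Under DMSO, most synthetase genes had a low labelled share. Pooled over the 3 DMSO libraries, the median gene had 5.63% T>C reads among the 20 cytosolic genes and 7.68% among the 16 mitochondrial genes, against 9.23% over 10007 coding genes with a mean of at least 100 reads. Only 2 of the 20 cytosolic genes, but 7 of the 16 mitochondrial genes, lay above that median of all coding genes. The share also depends on how many T positions a read covers, which had a median of 19.2 per read in the cytosolic group, 22.7 in the mitochondrial group and 25.7 over the coding genes, so shares of different genes are a description only.

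MARS2, the mitochondrial methionine enzyme, had the highest share of the family. It had 36.6%, 27.1% and 51.2% T>C reads in the 3 DMSO libraries, or 39.8% pooled, above 95.7% of those coding genes, and its reads covered 36.0 T positions on average. PARS2, the mitochondrial proline enzyme, followed with 20.2%, 45.6% and 61.7%, or 37.6% pooled, and its libraries spread so widely that the order of these genes is not set. YARS2, the mitochondrial tyrosine enzyme, had 23.3%, 16.9% and 19.6%. AARS, which loads alanine, had the highest pooled share of the cytosolic genes, 15.1%. The lowest pooled shares were those of SARS2 (0.16%), CARS2 (0.780%), TARS2 (1.33%), HARS (1.73%) and VARS (1.88%). MARS2 is annotated with a single exon and PARS2 with 2 exons. SARS2, with 0 to 16 T>C reads per library, was too low in T>C reads to be tested, so T>C reads and the labelled share were tested for 35 of the 36 genes. All 36 were tested in all reads.

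PladB changed the total RNA of 11 of the 36 synthetase genes, in both directions. Of these, 7 rose (KARS, NARS, QARS, VARS, WARS, IARS2 and MARS2) and 4 fell (GARS, TARS, YARS and AARS2) at an adjusted p under 0.05 in edgeR's quasi-likelihood test with Benjamini-Hochberg adjustment over 13178 genes. The same test called 13.9% of all tested genes higher and 16.3% lower, so these counts were near the background of all genes. The median change was -0.00 on the log2 scale over the 36 genes and -0.07 over all genes tested. Values below are counts per 1000000 coding reads (CPM), scaled between libraries, and log2 changes carry their standard error (SE). In bulk RNA, fewer cells of a type and less RNA per cell cannot be told apart.

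Among the genes that rose, 2 enzymes of the multisynthetase complex were called. KARS, the lysine enzyme of cytosol and mitochondria (3′ interval chr16:75661622-75661792, minus strand, hg19), had 389, 356 and 376 CPM with PladB, against 278, 238 and 289 CPM with DMSO. The PladB libraries all lay above the DMSO libraries (log2 change 0.48 ± 0.10, edgeR adjusted p = 0.000346). QARS, which loads glutamine, had 137, 173 and 147 CPM with PladB, against 119, 114 and 120.0 CPM with DMSO. The groups did not overlap (0.37 ± 0.13, edgeR adjusted p = 0.0291), but the call was lost without PladB replicate 2 (edgeR adjusted p = 0.189) and without any one of the DMSO libraries (0.0512 to 0.0675).

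WARS, VARS and NARS, which load tryptophan, valine and asparagine and are not in the complex, also rose. WARS had 113, 119.9 and 106 CPM with PladB, against 64.8, 57.3 and 87.6 CPM with DMSO (0.69 ± 0.15, edgeR adjusted p = 0.000521). VARS had 215, 211 and 159 CPM with PladB, against 149, 138 and 121 CPM with DMSO (0.52 ± 0.13, edgeR adjusted p = 0.00238). For both genes each PladB library was above each DMSO library. NARS had 323, 349.8 and 299 CPM with PladB, against 231, 298 and 259 CPM with DMSO. Its groups just cleared each other (0.30 ± 0.11, edgeR adjusted p = 0.0396), and leaving out 1 library ended the call for DMSO replicate 1 (edgeR adjusted p = 0.232), DMSO replicate 3 (0.089), PladB replicate 1 (0.0839) or PladB replicate 2 (0.167).

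Of the mitochondrial genes, MARS2 and IARS2, the methionine and isoleucine enzymes, rose in all reads. MARS2 had 70.8, 60.7 and 65.4 CPM with PladB, against 38.0, 28.4 and 40.5 CPM with DMSO (0.88 ± 0.20, edgeR adjusted p = 0.000496). Each PladB library was above each DMSO library, and no other synthetase gene that rose had a larger change. IARS2 had 94.1, 100.4 and 117 CPM with PladB, against 67.9, 73.6 and 73.7 CPM with DMSO (0.53 ± 0.16, edgeR adjusted p = 0.0101). Its groups did not overlap either, but the call was lost without PladB replicate 3 (0.43, edgeR adjusted p = 0.0717).

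Of the genes that fell, GARS had the smallest adjusted p. It encodes the glycine enzyme of cytosol and mitochondria (3′ interval chr7:30673477-30673649, plus strand, hg19), and had 145, 164 and 127 CPM with PladB, against 254, 225 and 247 CPM with DMSO. The groups lay far apart (log2 change -0.74 ± 0.11, edgeR adjusted p = 2e-06). TARS, the threonine enzyme, had 98.0, 77.1 and 97.3 CPM with PladB, against 144, 144 and 138 CPM with DMSO (-0.64 ± 0.13, edgeR adjusted p = 0.000175). YARS, the tyrosine enzyme, had 77.0, 75.5 and 89.8 CPM with PladB, against 107, 134 and 109 CPM with DMSO (-0.53 ± 0.14, edgeR adjusted p = 0.0029). No PladB library of these genes reached a DMSO library. AARS2, the mitochondrial alanine enzyme, had 24.6, 22.9 and 18.9 CPM with PladB, against 41.0, 30.1 and 44.6 CPM with DMSO (-0.80 ± 0.21, edgeR adjusted p = 0.00346). Its groups did not overlap, at lower read numbers than the others. Of the 11 calls, 8 held whichever single library of the comparison was left out.

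**Figure D1:**
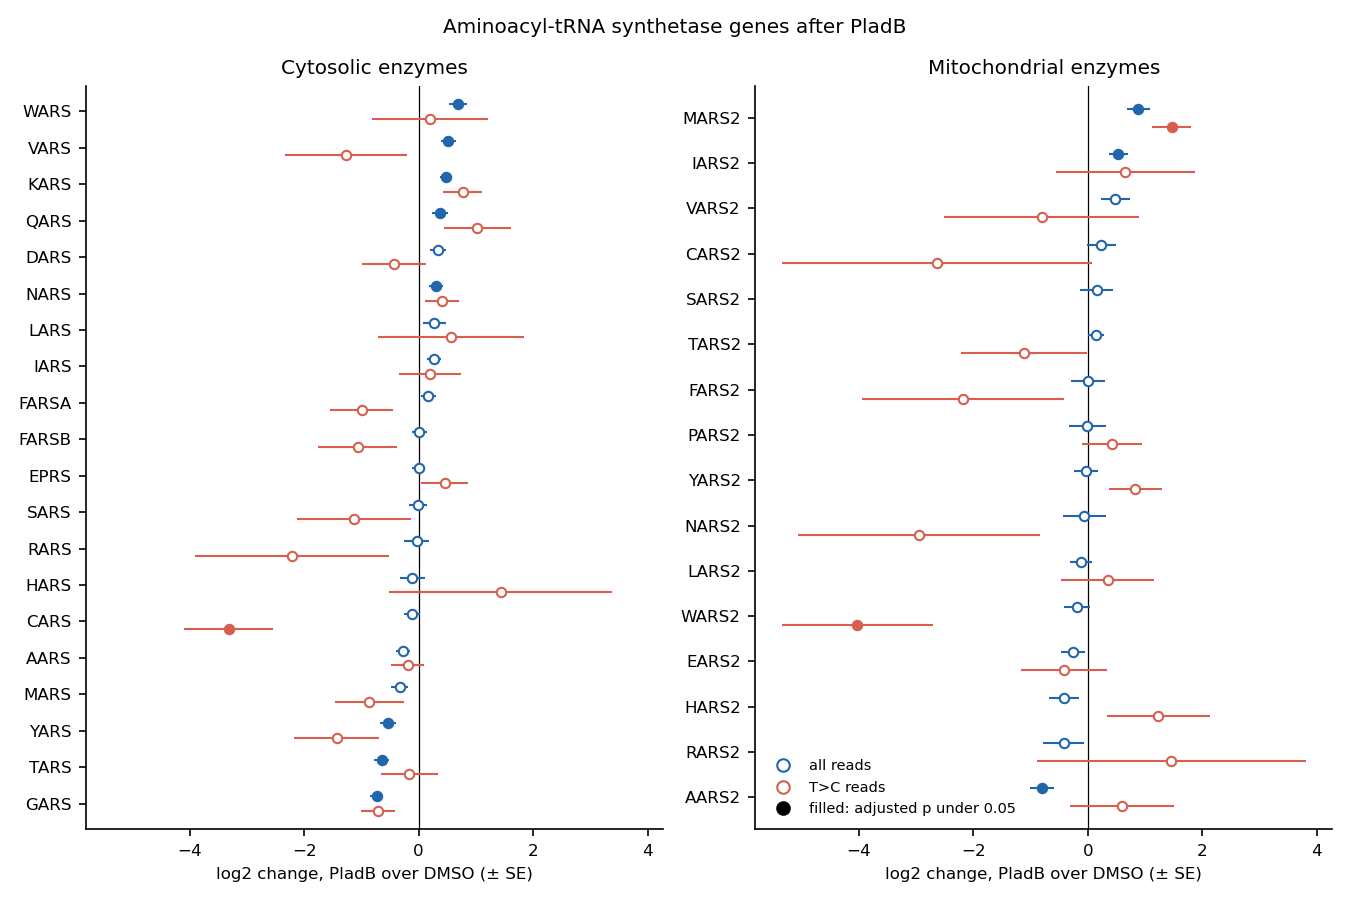
Log2 change ± SE with PladB over DMSO (x axis) for each synthetase gene (y axis), cytosolic genes on the left and mitochondrial genes on the right, in all reads (blue) and T>C reads (red), from the edgeR fit with 3 libraries per group. Filled points passed the adjusted p threshold of 0.05: 7 genes higher and 4 lower in all reads, and MARS2 higher with CARS and WARS2 lower in T>C reads.

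Within the cytosolic group, the 8 genes of the multisynthetase complex held 2 of the higher calls (KARS and QARS) and none of the lower ones, with a median log2 change in all reads of 0.27. The 12 cytosolic genes outside the complex held 3 higher and 3 lower calls, with a median of -0.06. These lists were described by counts and medians and were not tested against each other. In the complex, DARS (0.33, edgeR adjusted p = 0.0763), IARS (0.27, 0.0904) and MARS (-0.33, 0.083) missed the threshold. Of IARS reads, 31.4% mapped to more than 1 place, so its values are uncertain. For GARS this was 8.07%, and its call stood without such reads.

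In newly made RNA, 1 of the 35 tested synthetase genes rose with PladB and 2 fell. Over all 10722 genes tested, 4.72% were called higher and 5.91% lower, so these counts too were near the background. Libraries were scaled by their own T>C reads, so a change is relative to the newly made RNA of the other genes. The median gene changed by -0.36, and scaling T>C reads to all reads moved that median to -1.15.

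MARS2 was the gene that rose; its 3′ interval lies at chr2:198571912-198573114 on the plus strand (hg19). It had 401, 254 and 567 CPM of T>C reads with PladB, from 405, 190 and 410 T>C reads, against 142, 84.0 and 217 CPM with DMSO. Each PladB library was above each DMSO library (log2 change 1.46 ± 0.34, edgeR adjusted p = 0.00296), and the change was 1.15 to 1.85 with any 1 library left out. When T>C reads were scaled to all reads, the change was 0.65 and was no longer called (edgeR adjusted p = 0.187). MARS2 was thus called higher in total RNA under every alternative run, and higher in newly made RNA only relative to the newly made RNA of other genes.

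CARS, the cytosolic cysteine enzyme (3′ interval chr11:3022152-3022417, minus strand, hg19), kept few T>C reads. It had 16, 1 and 0 T>C reads among 1915, 1169 and 1196 reads with PladB, against 162, 53 and 91 among 1835, 1368 and 1906 with DMSO. The groups did not overlap (log2 change in T>C reads -3.31 ± 0.78, edgeR adjusted p = 0.0033), while all CARS reads changed by -0.12 (edgeR adjusted p = 0.57). PladB replicate 1 held 16 of the 17 T>C reads, and without it the change was -6.35. Fitted to the 6 libraries of the comparison alone, the change was -3.45 with an edgeR adjusted p of 0.15.

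WARS2, the mitochondrial tryptophan enzyme (3′ interval chr1:119573839-119575982, minus strand, hg19), had 0, 1 and 5 T>C reads among 508, 457 and 388 reads with PladB, against 95, 52 and 67 among 575, 500 and 643 with DMSO. The groups lay far apart, but on so few reads the fit was loose (-4.03 ± 1.32, edgeR adjusted p = 0.0428). The call was lost without any one of the DMSO libraries (edgeR adjusted p 0.0706 to 0.117), without PladB replicate 1 (0.114) or 2 (0.0753), and in the fit to the 6 libraries alone (0.131). Without PladB replicate 3 the change was -6.02. RARS, the arginine enzyme, was named for the size of its change and was not called: it had 8.92, 0 and 0 CPM of T>C reads with PladB, against 14.4, 29.4 and 0.623 CPM with DMSO (-2.22 ± 1.69, edgeR adjusted p = 0.456). Its groups overlapped.

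**Figure D2:**
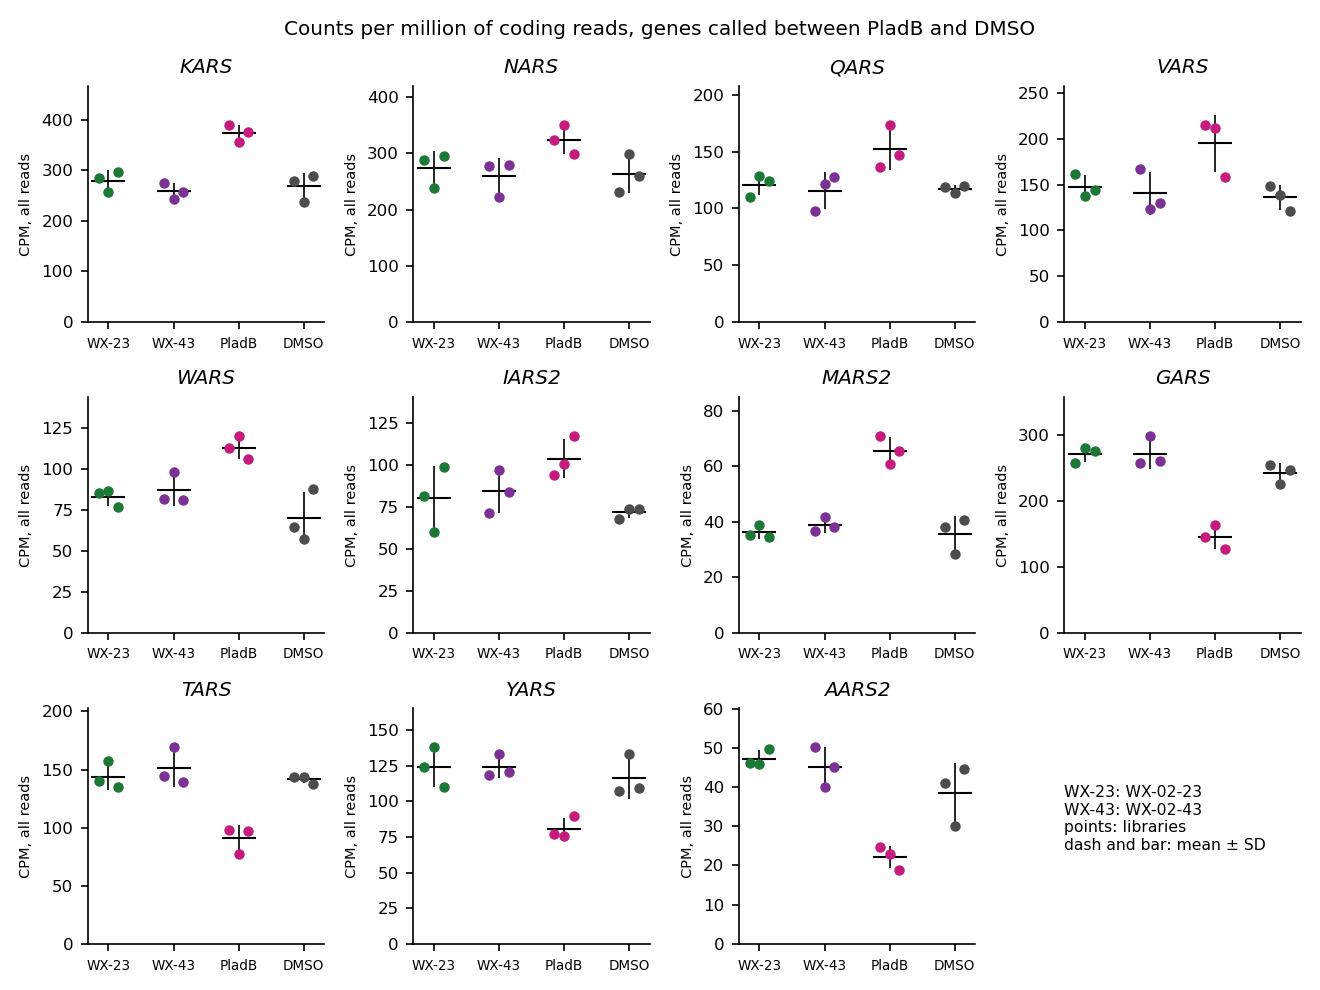
CPM of all reads (y axis, from 0) in each library of the 11 synthetase genes called in all reads with PladB, by group (WX-02-23, WX-02-43, PladB, DMSO); points are libraries, and the dash and bar are the mean ± SD (n = 3). The PladB points of GARS, TARS, YARS and AARS2 lie below every DMSO point, and those of MARS2, at 60.7 to 70.8 CPM, lie above the DMSO points at 28.4 to 40.5 CPM.

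The labelled share fell with PladB for 6 of the 35 tested genes and rose for none. Over all genes tested, 11.0% were called lower and 0.028% higher, and the median gene changed by -1.30 in the log2 odds that a read is a T>C read. The family's median was -0.85, with 30 genes below 0 and 5 above. The synthetase genes thus lay mostly below 0, as did the median of all genes.

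The 6 genes were CARS, WARS2, FARSA, FARSB, VARS and TARS2. CARS had 0.836%, 0.0855% and 0% T>C reads with PladB, against 8.83%, 3.87% and 4.77% with DMSO (log2 odds -4.39 ± 0.90, edgeR adjusted p = 0.00851). It was low in all 3 PladB libraries, and without PladB replicate 1 the change was -6.80. WARS2 had 0%, 0.219% and 1.29% with PladB, against 16.5%, 10.4% and 10.4% with DMSO (-5.12 ± 1.19, edgeR adjusted p = 0.0149). Leaving out DMSO replicate 1 ended that call (0.055). FARSA, the catalytic subunit of the cytosolic phenylalanine enzyme, had 1.09%, 0.718% and 1.71% with PladB, against 4.15%, 5.49% and 4.23% with DMSO (-2.08 ± 0.39, edgeR adjusted p = 0.00543). The FARSA groups were well apart.

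FARSB, the other subunit of that enzyme, had 1.74%, 1.98% and 0.696% with PladB, against 8.08%, 2.90% and 5.36% with DMSO (-1.92 ± 0.52, edgeR adjusted p = 0.0308). Its groups did not overlap, but the gene was no longer called without DMSO replicate 1 (0.128), DMSO replicate 3 (0.0905) or PladB replicate 3 (0.0909). VARS had 0.389%, 0.0697% and 0.505% with PladB, against 2.69%, 1.99% and 0.690% with DMSO (-2.47 ± 0.65, edgeR adjusted p = 0.0275), and was not called without DMSO replicate 1 (0.114), DMSO replicate 2 (0.0854) or PladB replicate 2 (0.0626). VARS rose in all reads at the same time. TARS2, the mitochondrial threonine enzyme, had 0.116%, 0.325% and 0.499% with PladB, against 1.12%, 2.06% and 1.08% with DMSO (-2.21 ± 0.67, edgeR adjusted p = 0.0482). Its call held without PladB replicate 3, and was lost when any other library of the comparison was left out (0.084 to 0.136). Only CARS and FARSA kept their call whichever library was left out. With limma on log2 odds and a replicate block, FARSA, FARSB, VARS and TARS2 were not called (limma adjusted p 0.0718 to 0.141).

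Summed over the 20 cytosolic genes, T>C reads were 3.32%, 3.21% and 3.25% of reads with PladB, against 7.04%, 5.07% and 7.03% with DMSO. The 16 mitochondrial genes together had 7.92%, 6.62% and 8.0% with PladB, against 9.07%, 7.39% and 10.3% with DMSO. The cytosolic libraries were apart and the mitochondrial ones overlapped. The mitochondrial T>C reads numbered 1047, 575 and 772 with PladB, against 1076, 664 and 1202 with DMSO. Of these, MARS2 alone gave 1005 over the PladB libraries and 715 over the DMSO libraries. The sums were not examined without MARS2. Over all coding genes, T>C reads were 5.66%, 5.31% and 5.35% with PladB, against 9.83%, 8.98% and 9.53% with DMSO. These libraries were apart as well. Gene by gene, the median change in log2 odds was -1.10 in the cytosolic group, where 1 of 20 genes was above 0, and -0.74 in the mitochondrial group, where 4 of 15 were. Over all genes tested that median was -1.30. In T>C reads the medians were -0.31 and 0.35, against -0.36 for all genes. In the multisynthetase complex no gene was called in share (median -0.70), while the 12 cytosolic genes outside it held 4 lower calls (median -1.67). The difference between these lists was not tested.

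A read counts as a T>C read with 1 changed position or more, and for some genes the 2 counts differed between groups in different proportion. AARS had 7.79 converted positions per 1000 covered T positions with WX-02-23 and 8.66 with WX-02-43, and 0.677 with PladB, against 5.53 with DMSO, each summed over 3 libraries. Its T>C reads summed to 497 with PladB, against 1094 with DMSO, and its converted positions within the interval to 67 with PladB, against 737 with DMSO. AARS and RARS2 were the only synthetase genes with more T>C reads than converted positions in the interval over all libraries. Within a single group the same was seen for LARS and VARS with DMSO, and for DARS, QARS and TARS2 with PladB. Not every changed position of the T>C reads of these genes was therefore counted within the interval. MARS2 had 23.4 converted positions per 1000 covered with PladB, against 29.5 with DMSO. Over whole libraries, 0.811% of covered T positions were converted with WX-02-23, 0.913% with WX-02-43 and 0.318% with PladB, against 0.706% with DMSO, so the AARS values moved in the same direction as the whole libraries in each group.

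**Figure D3:**
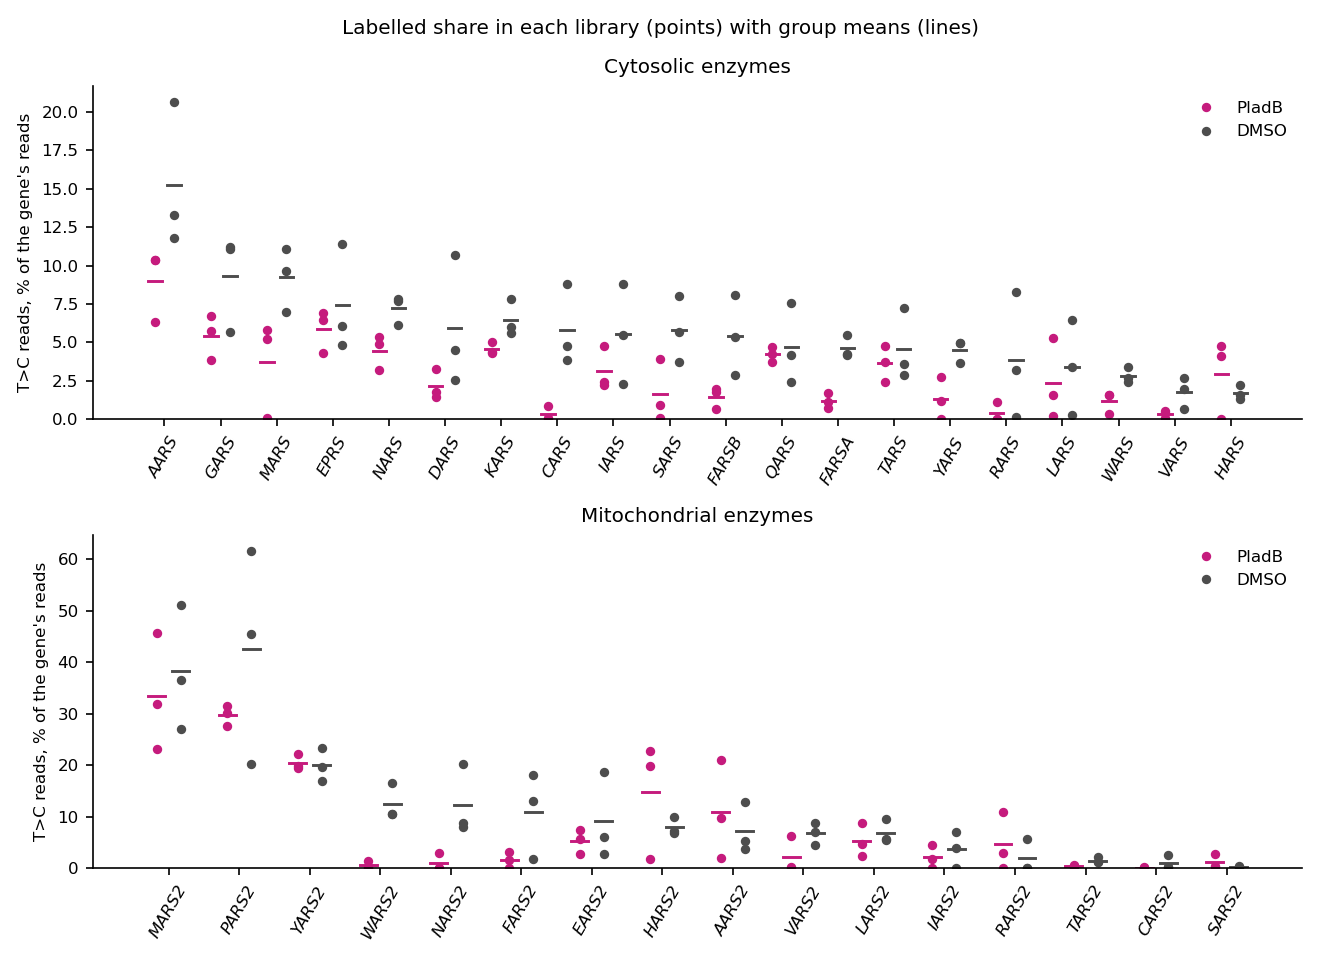
Labelled share (T>C reads as a percentage of the gene's reads, y axis) of each synthetase gene in the 3 PladB libraries and the 3 DMSO libraries; points are libraries, lines are group means, and genes run from the highest pooled DMSO share to the lowest. CARS and WARS2 lie near 0 with PladB, while MARS2 and YARS2 overlap between PladB and DMSO.

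Neither stereoprobe moved a synthetase gene past the threshold in any of the 3 measures. In T>C reads edgeR called 0 of 35 with WX-02-23 and 0 of 35 with WX-02-43, where 0.224% and 0.0933% of all genes were called, and 2 and 4 of the genes had an unadjusted p under 0.05. In all reads it called 0 of 36 with either compound, where 0.698% of all genes were called with WX-02-23 and 0.167% with WX-02-43, and 5 and 3 had an unadjusted p under 0.05. In labelled share it called 0 of 35, where 0.00933% and 0.0% of all genes were called, and 1 and 2 had an unadjusted p under 0.05. DESeq2 called 1 synthetase gene, NARS, higher in T>C reads with WX-02-23 (edgeR adjusted p = 0.634, DESeq2 adjusted p = 0.0485), and none with WX-02-43. The 95% interval of the change in T>C reads lay within 1 log2 unit of 0 for 2 of the 35 genes with WX-02-23 and 1 with WX-02-43. In labelled share it did so for 0 and 2 of 35, against 34 and 36 of 36 in all reads. A missed threshold in T>C reads or in labelled share therefore does not show that a gene did not change.

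The values of newly made RNA lay mostly above DMSO with both compounds. With WX-02-23, 25 of 35 genes were above 0 and the median log2 change was 0.44, and with WX-02-43 25 of 35 were above 0 and the median was 0.33. The medians of all genes tested were 0.00 and 0.00. NARS had 426, 281 and 377 CPM of T>C reads with WX-02-23 and 408, 194 and 428 CPM with WX-02-43, against 181, 201 and 213 CPM with DMSO. All WX-02-23 libraries, but not WX-02-43 replicate 2, lay above the DMSO libraries (WX-02-23 0.87 ± 0.29, unadjusted p = 0.0046, edgeR adjusted p = 0.634; WX-02-43 0.79 ± 0.29, unadjusted p = 0.0091, edgeR adjusted p = 0.974). GARS had 388, 395 and 358 CPM with WX-02-23 and 391, 430.5 and 317 CPM with WX-02-43, against 287, 139.9 and 289 CPM with DMSO. Its stereoprobe libraries all lay above DMSO, by 0.67 with each compound, and neither change was called.

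TARS had 143, 182 and 65.3 CPM with WX-02-23 and 153, 172 and 134 CPM with WX-02-43, against 52.4, 45.5 and 104 CPM with DMSO. Its WX-02-43 libraries were all above DMSO (1.18 ± 0.50, not called), while replicate 3 of WX-02-23 lay among the DMSO values (0.95, not called). TARS2 had 52.0, 29 and 47.0 CPM with WX-02-23 and 74.8, 14.8 and 46.1 CPM with WX-02-43, against 17.3, 23.1 and 16.2 CPM with DMSO. Its changes were 1.18 ± 1.06 and 1.26 ± 1.06, neither called, and WX-02-43 replicate 2 lay below every DMSO library. VARS had 65.1, 39.0 and 52.4 CPM with WX-02-23, against 40.9, 30.1 and 8.72 CPM with DMSO (0.97 ± 1.03), with groups that overlapped. MARS2, which rose with PladB, had 156, 208 and 163 CPM with WX-02-23 and 204, 158 and 197 CPM with WX-02-43, all within the DMSO range of 84.0 to 217.

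WARS and RARS had the largest changes with WX-02-43 beside TARS2. WARS had 72.2, 53.7 and 45.5 CPM of T>C reads with WX-02-43, against 16.1, 16.8 and 31.2 CPM with DMSO (1.42 ± 1.03, edgeR adjusted p = 1). RARS had 17.7, 77.2 and 8.14 CPM with WX-02-43, against 14.4, 29.4 and 0.623 CPM with DMSO (1.21 ± 1.59). The RARS value came from 1 library: without WX-02-43 replicate 2 it was -0.19.

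Summed over the cytosolic genes, T>C reads were 8.47%, 7.36% and 8.17% of reads with WX-02-23 and 8.94%, 8.01% and 8.04% with WX-02-43, against 7.04%, 5.07% and 7.03% with DMSO. The stereoprobe libraries all lay above the DMSO libraries, of which replicate 2 was the lowest. As a percentage of all coding T>C reads these genes made up 0.262%, 0.239% and 0.250% with WX-02-23 and 0.287%, 0.269% and 0.262% with WX-02-43, against 0.207%, 0.151% and 0.206% with DMSO. With 3 libraries against 3, an exact two-sided permutation test cannot give a p below 0.1, so no such test was made. The mitochondrial genes had 11.1%, 10.2% and 10.8% with WX-02-23 and 11.7%, 8.6% and 10.3% with WX-02-43, against 9.07%, 7.39% and 10.3% with DMSO and overlapped.

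The 7 cytosolic genes with a C/EBP-ATF match had these changes. With WX-02-23 all 7 were above 0 in T>C reads (median 0.67), against 2 of the 9 genes with a window but no match (median -0.21). With WX-02-43 it was 6 of 7 (median 0.73) against 7 of 9 (median 0.22). With PladB it was 2 of 7 (median -0.19) against 5 of 9 (median 0.20). None of these genes was called with a stereoprobe, and the lists were not tested.

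**Figure D4:**
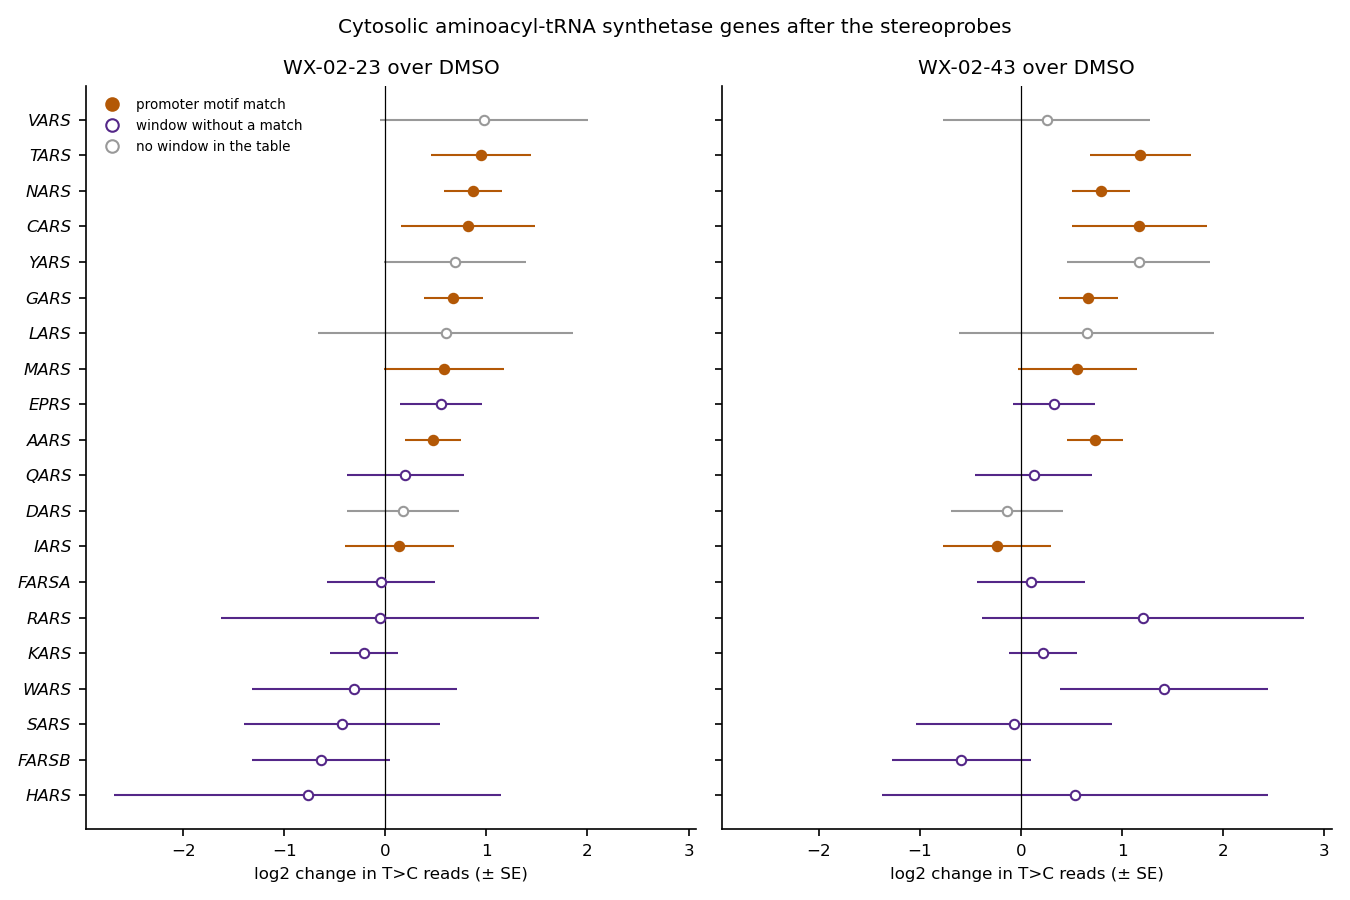
Log2 change ± SE in T>C reads of the 20 cytosolic synthetase genes with WX-02-23 over DMSO (left) and WX-02-43 over DMSO (right), from the edgeR fit with 3 libraries per group; filled points have a TGATGNAAN match in the promoter window. No gene passed the adjusted p threshold, and the 7 genes with a match lie above 0 with WX-02-23, and 6 of the 7 with WX-02-43.

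Set against each other at the same dose and time, WX-02-23 and WX-02-43 did not differ past the threshold in any synthetase gene. Of these direct comparisons, edgeR called 0 of 35 in T>C reads, 0 of 36 in all reads and 0 of 35 in labelled share, where 0.0466%, 0.152% and 0.0% of all genes were called, and 0, 1 and 1 had an unadjusted p under 0.05. All p-values were adjusted over all genes tested, with 1 compound pair compared. In all reads the 95% interval of the difference lay within 1 log2 unit of 0 for 35 of 36 genes. In T>C reads it did so for only 4 of 35, and in labelled share for 3 of 35. For the other genes the intervals of newly made RNA and of the share reached past 1 log2 unit, so the misses do not show that the compounds acted alike.

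WARS had 17.3, 17.4 and 17.1 CPM of T>C reads with WX-02-23 and 72.2, 53.7 and 45.5 CPM with WX-02-43. The libraries did not overlap, and the difference was -1.72 ± 1.04 with an interval from -3.82 to 0.38 (edgeR unadjusted p = 0.105, adjusted p = 1). VARS2, the mitochondrial valine enzyme, had 26.2, 59.7 and 0 CPM with WX-02-23 and 0, 5.37 and 19.7 CPM with WX-02-43 (1.77, interval -1.72 to 5.26), with a library at 0 on each side. RARS had 4.22, 26.5 and 12.2 CPM with WX-02-23 and 17.7, 77.2 and 8.14 CPM with WX-02-43 (-1.26, interval -4.49 to 1.96), and without WX-02-43 replicate 2 the difference was 0.14. In all reads TARS2 had 151, 137 and 190.5 CPM with WX-02-23 and 139, 129.6 and 111 CPM with WX-02-43 (0.34, interval 0.05 to 0.62, edgeR unadjusted p = 0.023, adjusted p = 0.822).

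The synthetases work within a wider set of genes, and 32 of these were read in the same fit: complex scaffolds, makers of special aminoacyl-tRNAs, editing and export factors, amino acid synthesis enzymes, stress transcription factors and elongation factors. With PladB, 13 rose in all reads and 6 fell, where 13.9% of all genes tested were called higher and 16.3% lower. Of 8 elongation factors, which bring charged transfer RNAs to the ribosome or move it along, 7 rose: EEF1B2 (0.60), EEF1G (0.43), EEF2 (0.47) and EEF1A1 (0.46), with TUFM (0.69), TSFM (0.46) and GFM1 (0.43). The EEF1A1 change was 0.05 without multimapping reads and no longer called (edgeR adjusted p = 0.876). Of 6 makers of special aminoacyl-tRNAs in mitochondria or for selenocysteine, 4 fell: GATC (-0.69), QRSL1 (-1.36), MTFMT (-1.22) and SEPSECS (-1.88). The scaffold gene AIMP1 (0.42), the editing gene DTD1 (0.53) and the amino acid synthesis genes ALDH18A1 (0.52), PYCR1 (0.43) and SHMT2 (0.59) rose, and PSPH (-0.54) fell. Leaving out a single library ended 5 of these 19 calls (AIMP1, GFM1, PSPH, SEPSECS and TSFM).

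ATF4 and its partner DDIT3 went opposite ways in all reads with PladB. ATF4 had 362, 322 and 289 CPM with PladB, against 467, 432 and 484 CPM with DMSO (-0.51). DDIT3 had 181, 199.8 and 183 CPM with PladB, against 60.7, 85.5 and 81.1 CPM with DMSO (1.31, edgeR adjusted p = 3.04e-09). The DDIT3 labelled share fell by 2.56 in log2 odds at the same time. In T>C reads, 4.72% of all genes tested were called higher with PladB and 5.91% lower. Of the 32 related genes, 3 rose (EEF1A1, TSFM and TUFM) and 5 fell (ATF3, GATC, MTHFD2, PSAT1 and PSPH). EEF1A1 turned from 0.48 to -0.32 when T>C reads were scaled to all reads. PSAT1, a serine synthesis enzyme and known ATF4 target, had 56.5, 42.8 and 36.0 CPM of T>C reads with PladB, against 235, 192 and 234 CPM with DMSO (-2.28, edgeR adjusted p = 3.73e-06), and was the only one of these 8 called whichever library was left out. In share 10 of the 32 fell and none rose, where 11.0% of all genes tested were called lower and 0.028% higher. They were PHGDH (-2.37), PSAT1 (-2.97) and PSPH (-2.93), the enzymes of serine synthesis, the folate enzyme MTHFD2 (-1.60), the transcription factors ATF3 (-3.03), DDIT3 and CEBPB (-1.11), the elongation factors EEF1A1 (-0.81) and EEF2 (-1.41), and GATC (-1.44). The median of all genes tested was -1.30, so EEF1A1 and CEBPB fell less than the median gene. EEF2 and GATC lay near that median. Leaving out a single library ended the calls of CEBPB, GATC and PSPH.

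With WX-02-23, ATF4 (0.47, edgeR adjusted p = 0.0053), ATF3 (0.88, 0.00987) and DDIT3 (0.60, 0.026) rose in all reads and EEF1A1 fell (-0.28, 0.0229). Over all genes tested, 0.698% were called in that comparison. ATF4 had 644, 673 and 603 CPM with WX-02-23, against 467, 432 and 484 CPM with DMSO. Each of these 4 calls was lost without some library: ATF4 without WX-02-23 replicate 2 (edgeR adjusted p = 0.0678), ATF3 without that library (0.116) or DMSO replicate 1 (0.111), DDIT3 without DMSO replicate 1 (0.207), WX-02-23 replicate 1 (0.0604) or WX-02-23 replicate 3 (0.233), and EEF1A1 without DMSO replicate 2 (0.237), WX-02-23 replicate 1 (0.156) or WX-02-23 replicate 2 (0.117). With WX-02-43 none of the 32 genes was called, and ATF4 had 589, 492 and 532 CPM. Between WX-02-23 and WX-02-43 none was called in any measure. Of the 26 related genes with a promoter window, ASNS and ATF3 had a TGATGNAAN match.

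The largest fitted changes of related genes in T>C reads rested on few reads, and none was called. AARSD1, an editing enzyme, had 0, 0 and 1 T>C reads with WX-02-43 and 7, 0 and 0 with PladB, against 19, 30 and 55 with DMSO (fitted log2 changes -6.14 and -3.16, which depend on the prior count). With WX-02-23 it had 20, 22 and 1, and its fitted difference from WX-02-43 was 4.91. PSTK, a kinase of selenocysteinyl-tRNA synthesis, had 30, 0 and 0 with WX-02-23 and 7, 18 and 13 with WX-02-43, against 3, 0 and 0 with DMSO (2.83 and 3.67). SEPSECS, of the same pathway, had 0, 2 and 0 with PladB, against 0, 25 and 19 with DMSO (-3.37). ALDH18A1, of proline synthesis, had a change of 1.32 with WX-02-23, and MTFMT a difference of 1.79 between WX-02-23 and WX-02-43.

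**Figure D5:**
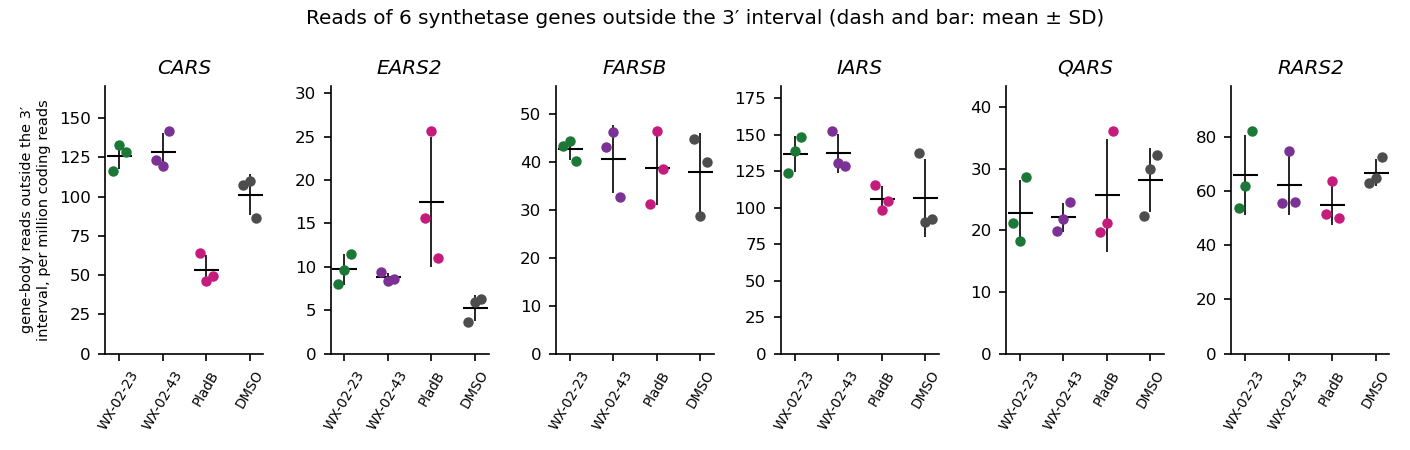
Reads outside the 3′ interval per 1000000 coding reads (y axis, from 0) of the 6 synthetase genes with a long noncoding-transcript interval, by group (WX-02-23, WX-02-43, PladB, DMSO); points are libraries, and the dash and bar are the mean ± SD (n = 3). CARS lies at 46.0 to 64.1 with PladB, against 86.3 to 110.0 with DMSO, and EARS2 at 11 to 25.7 with PladB, against 3.58 to 6.34 with DMSO. The IARS and QARS intervals also overlap intervals of other genes.

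For 6 synthetase genes the files also held a long noncoding-transcript interval with the gene's name that spans much of the gene. Reads in it but outside the 3′ interval do not enter the tests above. CARS had 64.1, 46.0 and 49.6 such reads per 1000000 coding reads with PladB, against 107, 110.0 and 86.3 with DMSO. Of these CARS reads, 6.08%, 0% and 7.29% were T>C reads with PladB, against 11.7%, 7.75% and 7.63% with DMSO. EARS2, the mitochondrial glutamate enzyme, had 15.6, 25.7 and 11 with PladB, against 3.58, 5.97 and 6.34 with DMSO. The CARS libraries with PladB were below, and the EARS2 libraries with PladB above, every DMSO library. For FARSB, IARS, QARS and RARS2 the PladB and DMSO libraries overlapped. The long IARS interval also overlaps 2 intervals of other genes on its strand, and the QARS interval 1. Reads of those other genes were not taken out. FARSB averaged 38.7 with PladB and 37.8 with DMSO, IARS 105.9 with PladB and 106.6 with DMSO, QARS 25.6 with PladB and 28.1 with DMSO, and RARS2 55.0 with PladB and 66.9 with DMSO. None of these differences was tested.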

How the data were processed

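SLAM-seq libraries of 12 samples were used, 3 per group, made with a QuantSeq 3′ kit after iodoacetamide treatment, per the labels' protocols. Reads carry no molecular identifiers, so counting precision covers counting error only. A library without 4-thiouridine was not analysed here, which leaves background T>C reads in all values. The authors processed the reads with slamdunk 0.4.3, per the file headers, on hg19, per the submitters' processing notes. For each 3′ interval the authors deposited raw counts of reads, T>C reads, multimapping reads, covered T positions and converted positions. The authors also deposited a CPM value and a conversion rate, a fraction of covered T positions, per interval, which were not tested. CPM in the text were computed anew from the counts.

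Each file held 29255 intervals, of which 23085 were of coding transcripts. Of 45 names turned into dates, 44 were restored, and 27 chromosome Y intervals of the pseudoautosomal regions were dropped, which gave 18650 coding genes. Overlapping intervals of a gene were counted once, which reduced the 39 intervals of the synthetase genes to 37. A further 6 noncoding intervals carry such a name and did not enter the tests.

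All coding genes that passed filterByExpr were tested with edgeR 4.0.16 (quasi-likelihood fit to all 12 libraries, group as the only term, TMM scaling) in R 4.3.3, with Benjamini-Hochberg adjustment over all of them and a threshold of 0.05. The T>C fit was scaled by each library's own T>C reads. The labelled share was tested by fitting T>C reads and other reads of each gene side by side with a term per library, which gives a log2 odds change with no scaling between the classes. The tests were also run on simulated counts. A log2 change of 1 was called for 37% to 52% of changed genes in T>C reads and 54% to 62% in all reads. In labelled share it was called for only 3% to 8%. A change of 2 was called for 99% to 100% in T>C reads, but for 22% to 23% in labelled share. Every gene had the same spread in the simulated T>C reads and all reads, set in advance and not estimated from these libraries. In the real T>C fits the synthetase genes had a median SE of 0.73 to 0.78, and up to 2.70 for a single gene with PladB. These rates therefore need not hold for the synthetase genes. Alternatives were DESeq2 1.42.0, its size factors, no filter, the 6 libraries of a comparison alone, a replicate block, plain interval sums, no multimapping reads, scaling to all reads, limma 3.58.1 on log2 odds, and leaving out each library. Promoter windows were searched with Python 3.11.15, and some of the sequences matched and 1 marker gene are not reported here.

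The synthetase genes and the lists of related genes were chosen with earlier results of these data known. Values in every library are given for synthetase genes called in any comparison, and for the 3 with the largest change in T>C reads in each comparison among those with a mean of at least 20 T>C reads. Of the related genes, those called and the 2 with the largest change are named. NARS, GARS, AARS and TARS with the stereoprobes, and the genes at the ends of the DMSO shares, were named after their values were seen.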

Additional observations from a re-analysis of the deposited data

Results flagged for a closer look

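Reads that lie in the long noncoding-transcript intervals of CARS and EARS2, outside the 3′ interval, belong to none of the comparisons. They stood above the level of the DMSO libraries with WX-02-23 and WX-02-43 for both genes, and with PladB for EARS2, while CARS with PladB stood below it. For CARS they averaged 126 ± 8.38 per 1000000 coding reads with WX-02-23 and 128 ± 12 with WX-02-43, and 53.2 ± 9.60 with PladB, against 101 ± 13.0 with DMSO (SD, n = 3 each). For EARS2 they averaged 9.69 ± 1.77 with WX-02-23, 8.78 ± 0.528 with WX-02-43 and 17.4 ± 7.5 with PladB, against 5.29 ± 1.5 with DMSO (SD, n = 3 each). These differences were not tested.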

How the results depend on the processing

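Of the single-gene results under all alternatives, 872 kept their direction and their side of the threshold, 143 were no longer called and 4 changed sign. Those were PSTK with WX-02-23 in T>C reads (-2.84 to 5.72 with 1 library left out), RARS with WX-02-43 (-0.19 to 2.18) and between WX-02-23 and WX-02-43 (-2.06 to 0.14), and EEF1A1 with PladB (-0.32 when T>C reads were scaled to all reads). Of the counts of synthetase genes called, 293 stayed within 1.5 times and 11 moved. DESeq2 called 1 gene higher in T>C reads with WX-02-23. For T>C reads with PladB, the genes called lower numbered 0 in the fit to 6 libraries alone and 1 to 3 with 1 library left out. Scaled to all reads, 0 genes were higher and 6 lower (AARS, CARS, FARSA, GARS, WARS2 and YARS). That scaling sets newly made RNA against total RNA. Of all 10722 genes tested it called 85 higher and 1749 lower, with a median change of -1.15. For the labelled share with PladB, 3 genes were lower in the fit to 6 libraries, 3 with limma on log2 odds and a replicate block, and 2 to 6 with 1 library left out. The cause was not tested.

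Replicate numbers did not pair the samples (correlations of deviations from -0.032 to 0.0258), and with the replicate block the PladB counts were 1 higher and 2 lower in T>C reads and 7 and 4 in all reads. T>C reads of the synthetase genes were few, and between replicates the variance of the share was a median of 12.3 to 15.1 times the binomial variance over all genes. Over the synthetase genes this median was 4.81 with WX-02-23, 19.7 with WX-02-43, 12.5 with PladB and 23.3 with DMSO.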
